A study of Mus musculus with 8 samples.

Results

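The 2 alpha crystallin genes *Cryaa* and *Cryab* and the 6 beta crystallin genes *Cryba1*, *Cryba2*, *Cryba4*, *Crybb1*, *Crybb2* and *Crybb3* were followed in the retinal pigment epithelium (RPE) of *Bbs8*-/- mice. These 8 genes were chosen by name, by matching the Ensembl identifiers of the count tables to gene symbols, and all 8 were found among 31053 identifiers. RNA was measured in 8 libraries of RPE from mice at postnatal day 29 (P29), 4 from *Bbs8*-/- mice and 4 from *Bbs8*+/+ littermates, all on a C57/Bl6 background and of undetermined sex. Each library came from 1 animal, and n is 4 libraries per genotype throughout. *Bbs8*, listed as *Ttc8*, encodes a subunit of the BBSome, a complex that carries membrane proteins to and from the cilium. The knockout is germline and not restricted to the RPE, so the retina and the lens of the *Bbs8*-/- mice lacked the gene too. The RPE was collected as sheets from eyecups that had been cleared of lens, neural retina and cornea.

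Crystallins are the abundant soluble proteins of the lens, where their dense packing gives transparency and refraction. The alpha crystallins are small heat shock proteins, chaperones that hold partly unfolded proteins in solution. *Cryaa* is largely restricted to the lens, whereas *Cryab* is also made in heart, skeletal muscle, brain and retina and in RPE cells. The beta crystallins are structural proteins that assemble into oligomers and fall into an acidic group (*Cryba1*, *Cryba2*, *Cryba4*) and a basic group (*Crybb1*, *Crybb2*, *Crybb3*). The gamma crystallins are their monomeric relatives and are made mainly in lens fibre cells. Low levels of several lens crystallins are also known from the retina. Transcription of lens crystallins depends on Pax6 and on large Maf proteins, and heat shock factors can act on the alpha crystallin genes.

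The 8 genes lie on 5 chromosomes of GRCm38. *Cryaa* (ENSMUSG00000024041) occupies chr17:31677807-31681733 and *Cryab* (ENSMUSG00000032060) chr9:50751325-50756636, both on the forward strand. *Cryab* overlaps *Hspb2*, a small heat shock protein gene on the opposite strand, by 1030 bp. *Cryba1* (ENSMUSG00000000724) lies at chr11:77718615-77725283 and *Cryba2* (ENSMUSG00000006546) at chr1:74889934-74893143, both on the reverse strand. The other four form a cluster of 835092 bp on chromosome 5. In it *Cryba4* (ENSMUSG00000066975, chr5:112246493-112252518, reverse strand) and *Crybb1* (ENSMUSG00000029343, chr5:112255815-112269585, forward strand) stand head to head, 3296 bp apart. *Crybb2* (ENSMUSG00000042240, chr5:113058258-113070117) and *Crybb3* (ENSMUSG00000029352, chr5:113075839-113081584) follow 788672 bp away, both on the reverse strand and 5721 bp from each other. Every word of 50 bases in the last 500 bases of 1 whole transcript of each member, untranslated end included and chosen for the longest coding part, was found in no other gene's transcripts, so that reads of the transcript ends could be told apart among the members.

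The bases just upstream of the transcription start are shown for the *Cryba4* and *Crybb1* pair, for *Cryba1*, which like *Crybb1* holds both of the motifs marked, and for *Crybb2*, which holds neither. They are printed from 5′ to 3′ on the strand of the gene, and capitals mark TATAAA, the TATA box motif, and TGCTGA or its reverse complement TCAGCA, the half-site bound by large Maf proteins. No marked match overlaps another. The sequences are from RefSeq on GRCm38.p6, which had an entry for 7 of the 8 genes and none for *Cryab*. The stretches are chr5:112252519-112252668 (reverse strand), chr5:112255670-112255814 (forward strand), chr11:77725294-77725443 (reverse strand) and chr5:113070118-113070267 (reverse strand). For *Cryaa* 30 bases around its match are given, chr17:31677811-31677840 on the forward strand, where the GENCODE annotation places an earlier transcript start.
Cryba4: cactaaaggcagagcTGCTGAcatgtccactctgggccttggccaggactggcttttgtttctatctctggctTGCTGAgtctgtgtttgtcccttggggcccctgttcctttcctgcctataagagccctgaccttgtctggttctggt
Crybb1: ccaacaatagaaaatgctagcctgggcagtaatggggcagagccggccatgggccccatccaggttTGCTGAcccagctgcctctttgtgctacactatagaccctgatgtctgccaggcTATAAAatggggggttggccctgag
Cryba1: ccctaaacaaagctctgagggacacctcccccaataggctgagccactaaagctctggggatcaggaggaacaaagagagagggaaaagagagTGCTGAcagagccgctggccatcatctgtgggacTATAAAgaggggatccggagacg
Crybb2: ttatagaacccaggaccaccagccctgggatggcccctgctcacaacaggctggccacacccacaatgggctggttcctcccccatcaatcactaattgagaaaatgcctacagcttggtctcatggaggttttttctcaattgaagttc
Cryaa: gagcattccagcTGCTGAcggtgcagcctc

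In the 150 bases upstream of the RefSeq start, TGCTGA was found on either strand in 6 of the 7 members, the exception being *Crybb2*, and in 10.1% of all 32851 windows of this length. Its first base lay 108 bases before the start in *Cryaa*, 57 in *Cryba1*, 84 in *Crybb1* and 135 and 77 in *Cryba4*, which holds it on the forward strand in both places. The match was on the reverse strand in *Cryba2*, 149 bases before the start, and in *Crybb3*, 67 bases before it. TATAAA was found in *Cryba1* and *Crybb1*, 2 of 7, against 7.57% of all windows. The heat shock element cores TTCNNGAA and GAANNTTC were found in 0 of 7 members, against 4.21% and 3.95% of all windows, and CCAAT in *Cryba1* alone, against 24.5%. A match in these windows is a description of the sequence and was not tied to binding.

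The libraries held 2389835 to 3093428 counts on genes, made from 30 ng of RNA by QuantSeq, which starts from poly-A tails and reads 100 bp near the transcript end. Reads outside genes were 17.0% to 18.5% of a *Bbs8*+/+ and 19.8% to 20.6% of a *Bbs8*-/- library, and 14115 to 14496 and 13657 to 14084 genes had a count, so that neither overlapped between genotypes; the part of this in the crystallin values was not tested. Levels are given as counts relative to library size (CPM) after scaling with edgeR's TMM factors. A transcript gives 1 read whatever its length, so levels of different genes were compared as CPM with no division by length. A count of 3, taken as the floor, equals 0.970 to 1.26 CPM per library before TMM scaling, which covers counting error only. After scaling it averaged 1.12 CPM in *Bbs8*+/+ and 1.14 CPM in *Bbs8*-/- libraries. *Ttc8* was at 47.6 ± 10.3 and 4.70 ± 1.97 CPM (SD, n = 4; log2 fold change −3.34, SE 0.29, adjusted p = 2.48e-11 in edgeR), so the targeted gene was low in every library labelled as knockout. RPE markers were present in both genotypes, with *Rpe65* at 3866 CPM or more in every library, except *Best1*, at no more than 2.0 CPM in any. Rod RNA was present too: the summed level of 6 rod markers, all lower in *Bbs8*-/- libraries, was 44664 to 48636 CPM in *Bbs8*+/+ and 17850 to 18368 CPM in *Bbs8*-/- libraries. In such bulk samples fewer cells of a type and less RNA per cell cannot be told apart.

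All 8 alpha and beta crystallins fell in *Bbs8*-/- RPE (adjusted p under 0.05), in a fit across 12889 genes of which 6.80% were called lower and 5.46% higher. The genotypes did not overlap for any of them, whereas 8.62% of all tested genes lay wholly below and 7.42% wholly above the *Bbs8*+/+ range. *Cryaa* and the 6 beta crystallins dropped to between 13.2% and 20.4% of their *Bbs8*+/+ mean, while *Cryab* stayed at 54.7%. These 7 each passed the threshold with a log2 fold change of −2 or less, as did 0.326% of all tested genes. Log2 fold changes, with their standard errors (SE), are from edgeR's quasi-likelihood test with Benjamini-Hochberg adjustment over all tested genes, two-sided. In the following, the 4 values of a genotype are given in the order of replicates 1 to 4. Every member also gave p = 0.0286 in a two-sided exact permutation test over libraries of the mean log2(CPM + 1), which 4 against 4 libraries cannot go below.

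**Figure D1:**
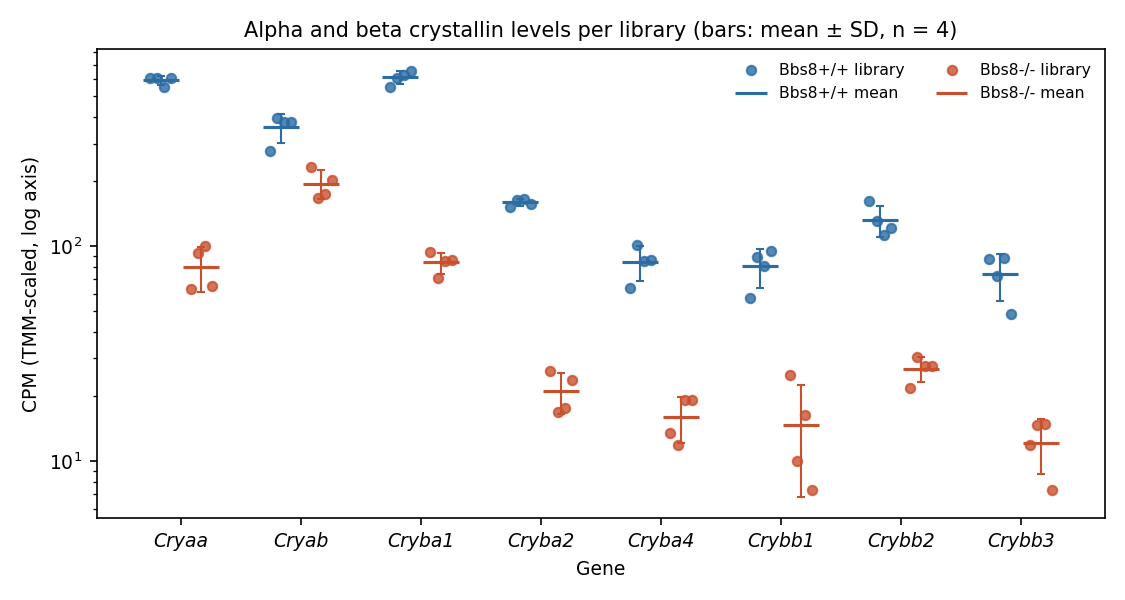
Level of each alpha and beta crystallin (gene on the x axis, TMM-scaled CPM on a log y axis) in the 4 *Bbs8*+/+ (blue) and 4 *Bbs8*-/- (orange) libraries. Points are libraries, horizontal lines means and whiskers SD. The orange points lie below the blue ones for every gene, with the narrowest gap for *Cryab*.

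*Cryaa*, the alpha crystallin largely restricted to the lens, was at 607, 605, 547 and 609 CPM in *Bbs8*+/+ libraries. In *Bbs8*-/- libraries it was at 63.2, 92.8, 100.0 and 65.0 CPM. Its *Bbs8*-/- values split into a lower pair, replicates 1 and 4, and a higher pair, replicates 2 and 3. The mean went from 592 ± 29.8 to 80.3 ± 18.9 CPM (SD, n = 4), and the log2 fold change was −2.88 (SE 0.11, adjusted p = 1.59e-21).

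*Cryab*, the alpha crystallin made in many tissues, was at 276, 394, 377 and 379 CPM in *Bbs8*+/+ and at 234, 168, 176 and 204 CPM in *Bbs8*-/- libraries. The lowest *Bbs8*+/+ library, replicate 1, stood apart from the other three and came close to the highest *Bbs8*-/- library, also a replicate 1. Here the order within the *Bbs8*-/- libraries was opposite to that of *Cryaa*, with replicates 1 and 4 the higher pair. The mean went from 357 ± 54.1 to 195 ± 29.9 CPM (SD, n = 4), and the log2 fold change was −0.87 (SE 0.11, adjusted p = 1.31e-07). Without *Bbs8*+/+ replicate 1 it was −0.97. Among all tested genes, 704 had a log2 fold change at or below that of *Cryab* and 31 at or below that of *Cryaa*.

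The acidic beta crystallins all fell. *Cryba1*, whose 1 gene gives 2 proteins by alternative starts of translation and which is also known from RPE lysosomes, was at 551, 608, 626 and 656 CPM in *Bbs8*+/+ and at 93.6, 70.9, 85.2 and 86.0 CPM in *Bbs8*-/- libraries. The spread within either genotype was small beside the gap, and the mean went from 610 ± 44.2 to 83.9 ± 9.45 CPM (SD, n = 4; log2 fold change −2.86, SE 0.10, adjusted p = 2.26e-23). *Cryba2* was at 152, 164, 166 and 156 CPM in *Bbs8*+/+ and at 26.3, 16.8, 17.6 and 23.8 CPM in *Bbs8*-/- libraries. As with *Cryab*, replicates 1 and 4 were the higher pair of the *Bbs8*-/- libraries. Its log2 fold change, −2.92 (SE 0.15, adjusted p = 9.49e-18), was the largest fall of the 8 genes in the fit, though its 95% confidence interval, −3.23 to −2.61, overlapped those of *Cryaa* and *Cryba1*. *Cryba4* was at 63.6, 101, 85.4 and 86.2 CPM in *Bbs8*+/+ and at 13.5, 11.8, 19.2 and 19.2 CPM in *Bbs8*-/- libraries. The log2 fold change was −2.39 (SE 0.20, adjusted p = 5.58e-12), with no overlap although *Bbs8*+/+ replicate 1 was low.

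The basic beta crystallins fell as well. *Crybb1*, the head-to-head partner of *Cryba4*, was at 57.5, 88.8, 80.5 and 95.1 CPM in *Bbs8*+/+ and at 25.0, 10.0, 16.4 and 7.34 CPM in *Bbs8*-/- libraries. It varied most among the *Bbs8*-/- libraries, with a coefficient of variation of 53.5%, and replicate 1 was the highest of them. Its log2 fold change was −2.47 (SE 0.24, adjusted p = 3.36e-10) and lay at −2.85 without that library. *Crybb2* was at 161, 131, 112 and 122 CPM in *Bbs8*+/+ and at 21.8, 30.5, 27.6 and 27.6 CPM in *Bbs8*-/- libraries. Unlike *Cryab*, *Cryba4* and *Crybb1*, it was highest in *Bbs8*+/+ replicate 1, and its log2 fold change was −2.29 (SE 0.16, adjusted p = 2.37e-14). *Crybb3*, its neighbour on chromosome 5, was at 86.7, 72.4, 87.9 and 48.3 CPM in *Bbs8*+/+ and at 11.9, 14.7, 14.8 and 7.34 CPM in *Bbs8*-/- libraries. Replicate 4 was the lowest library of each genotype, and the log2 fold change was −2.60 (SE 0.23, adjusted p = 2.18e-11). The lowest count behind any of these values was 21, for *Crybb1* and *Crybb3* in *Bbs8*-/- replicate 4.

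The order of the levels changed with genotype through *Cryab*. In *Bbs8*+/+ RPE *Cryba1* (610 CPM) and *Cryaa* (592 CPM) led with overlapping libraries, *Cryab* came next (357 CPM) and overlapped neither. *Cryba2* (160 CPM) and *Crybb2* (132 CPM) overlapped each other, as did *Cryba4* (84.2 CPM), *Crybb1* (80.5 CPM) and *Crybb3* (73.8 CPM). In *Bbs8*-/- RPE *Cryab* led at 195 CPM, above every library of *Cryba1* (83.9 CPM) and *Cryaa* (80.3 CPM), which again overlapped. *Crybb2* (26.9 CPM) and *Cryba2* (21.1 CPM) followed with overlapping libraries. *Cryba4* (15.9 CPM), *Crybb1* (14.7 CPM) and *Crybb3* (12.2 CPM) had lower means and could not be ordered beyond their spread. Unlike in *Bbs8*+/+ RPE, these groups overlapped too. In replicate 1 *Crybb1* (25.0 CPM) was above *Crybb2* (21.8 CPM), and *Cryba4* reached 19.2 CPM, above the lowest *Cryba2* library (16.8 CPM). Together the 8 genes took 0.187% to 0.212% of the counts of a *Bbs8*+/+ library and 0.0426% to 0.0498% of a *Bbs8*-/- library.

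Whether *Cryab* fell by another factor than the 7 other members was then asked. Counts were divided by the *Cryab* count of the same library, which does not depend on scaling. *Cryaa*, for each count of *Cryab*, had 2.20, 1.53, 1.45 and 1.61 counts in *Bbs8*+/+ and 0.271, 0.553, 0.569 and 0.319 counts in *Bbs8*-/- libraries. It outnumbered *Cryab* in every *Bbs8*+/+ library and in no *Bbs8*-/- library. The 7 other members together had 4.49 to 6.08 counts for each count of *Cryab* in *Bbs8*+/+ and 1.09 to 1.60 in *Bbs8*-/- libraries. *Cryab* thus made up 14.1% to 18.2% of the 8 genes' counts in *Bbs8*+/+ and 38.5% to 47.8% in *Bbs8*-/- RPE.

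All 7 fell relative to *Cryab*, with no overlap between genotypes and an exact permutation p of 0.0286 each (two-sided), against 0.621% of 12888 genes called lower and 57.9% called higher on this scale. The fall relative to *Cryab* was 4.00-fold for *Cryba1* (log2 difference −2.0, 95% confidence interval −2.41 to −1.60, adjusted p = 5.27e-17 in the quasi-likelihood test with the *Cryab* count as offset), 3.98-fold for *Cryaa* and 4.22-fold for *Cryba2*. It was smaller for *Cryba4* (2.84-fold), *Crybb1* (3.04-fold), *Crybb2* (2.71-fold) and *Crybb3* (3.35-fold). The intervals of these genes overlapped, from −2.54 to −1.61 for *Cryba2* at one end to −1.91 to −0.98 for *Crybb2* at the other. Each holds the error of the same *Cryab* counts, so their overlap does not compare the 7 genes with each other. In the fit without this offset, the interval of *Crybb2* (−2.61 to −1.97) lay apart from those of *Cryaa* (−3.11 to −2.65) and *Cryba1* (−3.06 to −2.66). All other pairs of the 7 overlapped there. All 7 stayed lower without *Bbs8*+/+ replicate 1, the library low in *Cryab*, where *Crybb2* fell least, by 1.17 on the log2 scale, and *Cryba2* most, by 1.97.

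**Figure D2:**
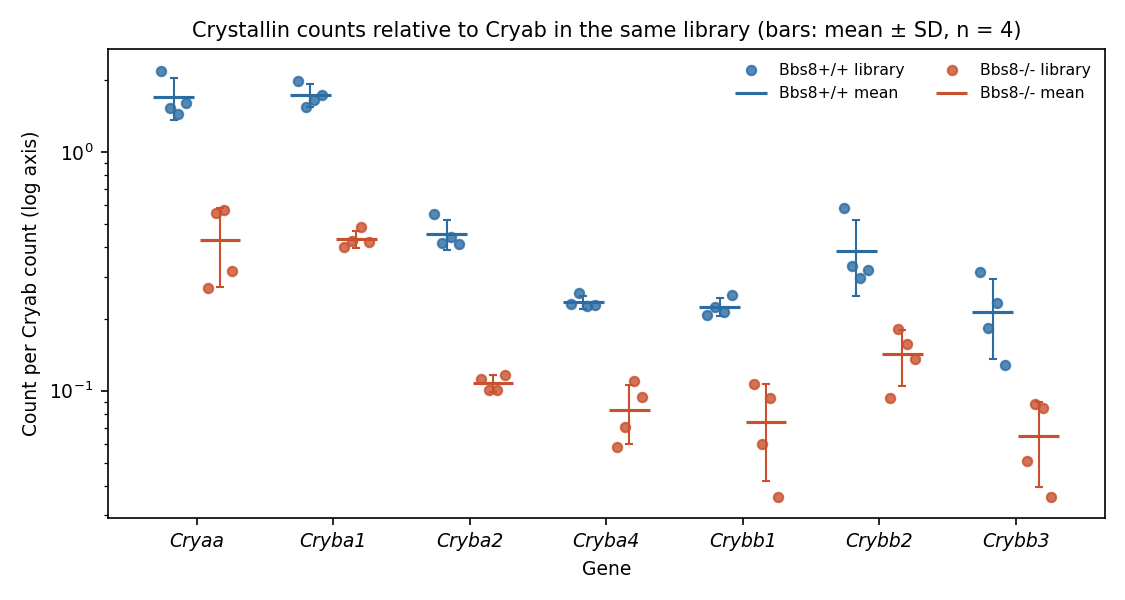
Counts of the 7 other crystallins divided by the *Cryab* count of the same library (log y axis), by gene. Points are libraries of *Bbs8*+/+ (blue) and *Bbs8*-/- (orange) RPE, horizontal lines means and whiskers SD (n = 4); every ratio was lower in all *Bbs8*-/- libraries, and *Cryaa* fell from above 1 to below 1.

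The make-up of the counts on the 7 members other than *Cryab* was then compared. *Cryaa* took 32.1% to 36.1% of their summed counts in *Bbs8*+/+ and 24.8% to 37.5% in *Bbs8*-/- libraries, and *Cryba1* 32.8% to 37.0% and 28.7% to 36.7%. The genotypes overlapped for each of the 7 shares. *Crybb2* had the highest mean share in *Bbs8*-/- relative to *Bbs8*+/+ libraries, 10.6% ± 1.73 against 7.62% ± 1.37 (SD, n = 4), and its ranges, 8.52% to 12.3% and 6.59% to 9.62%, shared only part of their length. These shares are a description and were not tested.

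**Figure D3:**
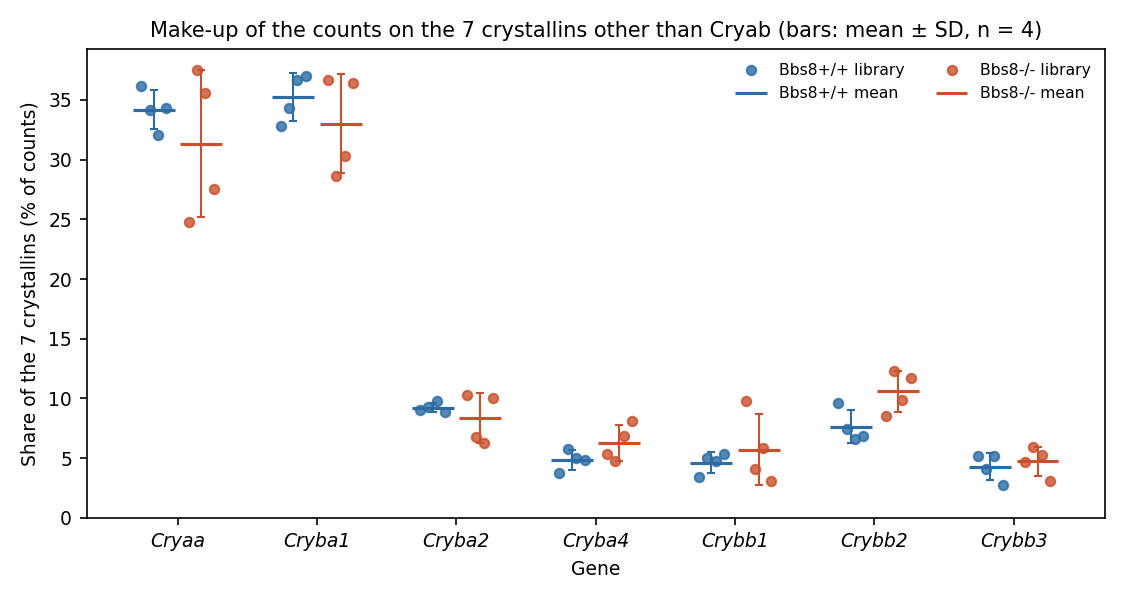
Share of each of the 7 crystallins other than *Cryab* in their summed counts (y axis, percent; gene on the x axis) in *Bbs8*+/+ (blue) and *Bbs8*-/- (orange) libraries. Points are libraries, horizontal lines means and whiskers SD (n = 4). *Cryaa* and *Cryba1* each make up 24.8% to 37.5% in every library, and the genotypes overlap for each gene.

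All 8 gamma crystallins also fell, with a median log2 fold change of −3.39 against 0.02 for all tested genes. Their summed level was 1587 to 1774 CPM in *Bbs8*+/+ and 146 to 175 CPM in *Bbs8*-/- libraries. Parts of the transcript ends of *Cryga*, *Crygb*, *Crygc*, *Crygd*, *Cryge* and *Crygf* are identical between genes, from 17.1% to 49.0% of 50-base words in the last 500 bases, so their single values are uncertain. Relative to the summed gamma crystallin counts all 8 alpha and beta crystallins rose, but so did 98.5% of all genes tested in that way. *Cryaa* was 1.39-fold higher relative to gamma crystallins (log2 difference 0.48, adjusted p = 0.000264 in edgeR's quasi-likelihood test), *Crybb2* 2.11-fold and *Cryab* 5.69-fold. The libraries of the genotypes overlapped on this scale for *Cryba2*, *Crybb1* and *Crybb3*. The call was lost for *Cryba2* without *Bbs8*-/- replicate 1 (log2 difference 0.29, edgeR adjusted p = 0.107) or replicate 4 (0.38), and for *Crybb1* without replicate 1 (0.46 in place of 0.90, adjusted p = 0.0799). With the summed lens fibre genes in place of gamma crystallins *Cryaa* and the 6 beta crystallins were lower, with a log2 difference of −2.04 for *Cryaa*, and *Cryab* was at −0.028 (edgeR adjusted p = 0.892). Without *Tdrd7* and *Caprin2* in that reference *Cryab* was higher, at 0.73 (adjusted p = 1.29e-05), and the other 7 were lower.

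**Figure D4:**
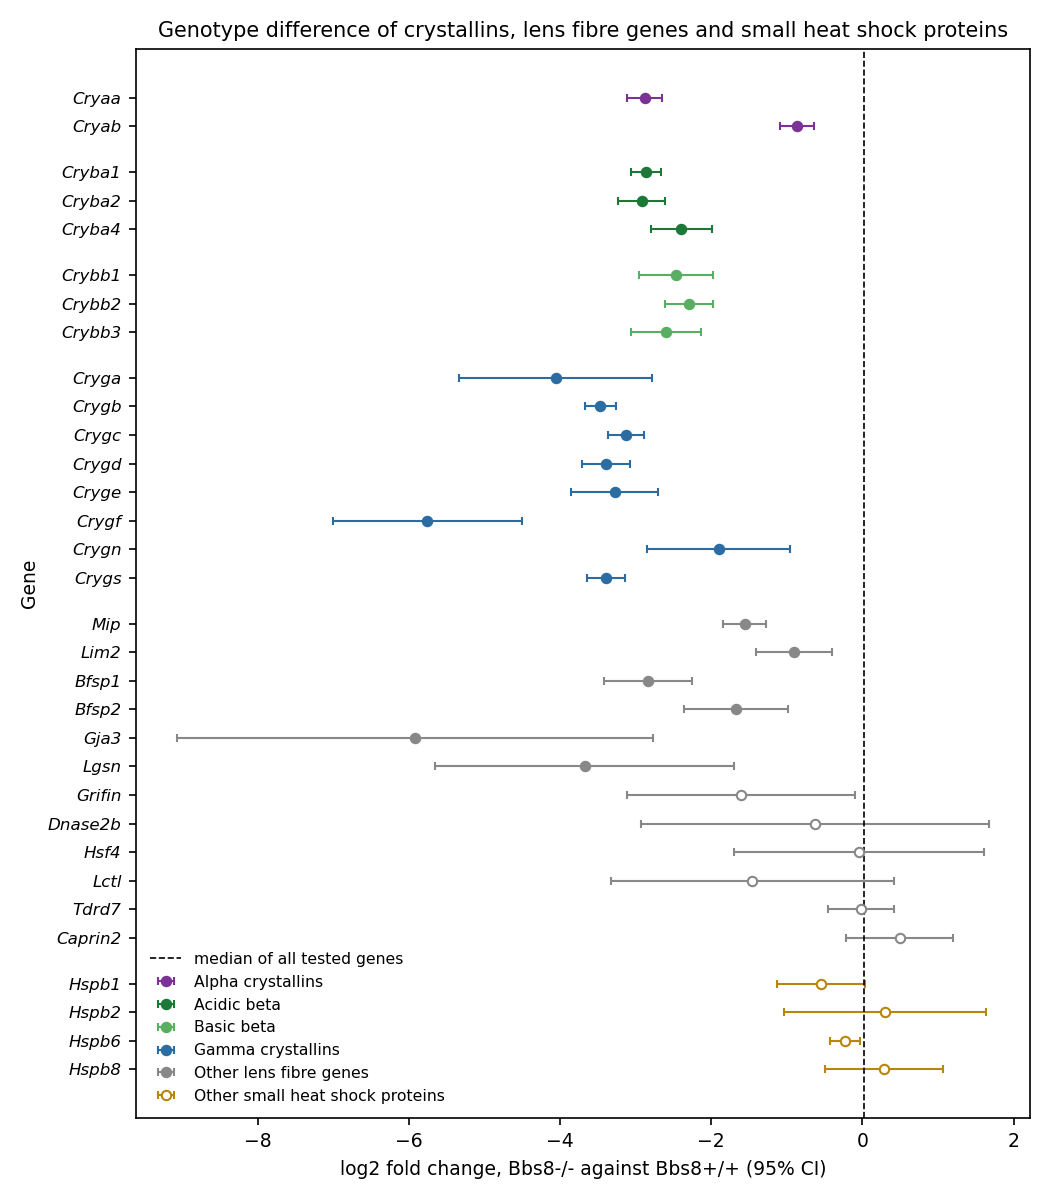
Log2 fold change of *Bbs8*-/- against *Bbs8*+/+ RPE (x axis) with 95% confidence intervals for alpha, beta and gamma crystallins, other lens fibre genes and other small heat shock proteins, 1 gene per row. Filled points passed an adjusted p of 0.05, open points did not, and the dashed line is the median of all tested genes, 0.02. *Cryab* lies apart from *Cryaa* and the beta crystallins, and *Gja3*, with no count in *Bbs8*-/- libraries, has a fitted value that is no bound.

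Of 15 lens fibre genes other than crystallins, 12 were tested, 6 fell (5 in DESeq2) and 0 rose in edgeR's quasi-likelihood test as in DESeq2, and 0 were higher at an unadjusted p under 0.05. The median log2 fold change was −1.51, or −1.37 with *Gja3* at its bound. *Mip*, the water channel of fibre cells, fell from 136 ± 9.57 to 46.1 ± 7.72 CPM (log2 fold change −1.56, edgeR adjusted p = 4.55e-11) and *Bfsp1*, of the beaded filament, from 42.8 ± 7.80 to 5.97 ± 2.57 CPM (log2 fold change −2.83, adjusted p = 6.80e-10; SD, n = 4). *Bfsp2*, *Lim2* and *Lgsn* fell too, and the connexin *Gja3* was at least 2.45-fold lower. *Tdrd7* (116 ± 59.3 and 114 ± 12.4 CPM) and *Caprin2* (10.3 ± 3.39 and 14.6 ± 5.08 CPM), which are also expressed outside the lens, did not pass the test. Neither did *Grifin*, *Lctl*, *Dnase2b* and *Hsf4*, with log2 fold changes of −1.61, −1.46, −0.63 and −0.05. Their means were no more than 5.16 CPM in either genotype. *Birc7* was near the floor in every library and *Lenep* had no count. The part of lens RNA carried into the preparations in the fall of the crystallins was not tested.

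Other markers moved beside the crystallins. The 5 erythrocyte markers all fell, with a summed level of 5152 to 5717 CPM in *Bbs8*+/+ and 1985 to 2218 CPM in *Bbs8*-/- libraries and a median log2 fold change of −1.34. That of the rod markers was −1.45. Of 8 RPE markers, *Ttr* rose, *Rpe65*, *Pmel* and *Rdh5* fell and the median was −0.14. Of 6 Müller glia markers *Glul* and *Dkk3* rose and the median was 0.83. Their summed level was 2165 to 2387 CPM in *Bbs8*+/+ and 2773 to 2962 CPM in *Bbs8*-/- libraries. Most of it was *Glul* (means 1199 and 1709 CPM) and *Car14* (1056 and 1020 CPM), and *Car14* did not pass (log2 fold change −0.05). *Slc1a3* (8.45 and 15.0 CPM), *Aqp4* (1.52 and 5.85 CPM) and *Kcnj10* (0.951 and 2.90 CPM) were low and did not pass either. Of 5 ocular surface markers *Krt5*, *Krt14* and *Krt15* rose from no more than 0.372 CPM in any *Bbs8*+/+ library. *Krt12*, which defines corneal epithelium, had no count in any library. *Aldh3a1* was at 12.9 ± 3.85 and 17.3 ± 2.05 CPM (SD, n = 4) and did not pass (log2 fold change 0.43, edgeR adjusted p = 0.426). The median of the 4 tested was 6.77, or 2.63 with *Krt5* and *Krt14* at their bounds. Striated muscle, which makes *Cryab*, left little RNA: the 7 muscle markers summed to 7.36 to 14.9 CPM in *Bbs8*+/+ and 2.05 to 8.0 CPM in *Bbs8*-/- libraries, and 0 of the 2 that could be tested passed in edgeR or DESeq2, with 1 lower at an unadjusted p under 0.05. The part of these cells in the crystallin values was not tested.

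*Cryab* was also set beside its relatives among the small heat shock proteins. Of 8 others, 4 were tested and 0 passed in edgeR's quasi-likelihood test, in DESeq2 or in any other alternative that kept all 8 libraries. At an unadjusted p under 0.05, 1 was lower, *Hspb6*, and the list had a median log2 fold change of 0.03. *Hspb6*, a cytosolic partner of alpha B-crystallin, was at 256, 237, 254 and 240 CPM in *Bbs8*+/+ and at 247, 188, 207 and 200 CPM in *Bbs8*-/- libraries. These overlap, and its log2 fold change was −0.23 (SE 0.10, adjusted p = 0.133). For each count of *Hspb6* there were 1.08 to 1.66 counts of *Cryab* in *Bbs8*+/+ and 0.849 to 1.02 in *Bbs8*-/- libraries. *Hspb1*, the widely expressed Hsp27, was at 21.5 ± 4.84 and 14.7 ± 4.91 CPM (SD, n = 4; log2 fold change −0.54, adjusted p = 0.253), and *Hspb2*, which overlaps *Cryab*, at 3.37 ± 2.26 and 4.13 ± 2.00 CPM. *Hspb3*, *Hspb7*, *Hspb9* and *Odf1* were too low to test.

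Of 9 other chaperones, *Hsp90aa1*, the inducible cytosolic Hsp90, fell from 1728 ± 194 to 1165 ± 46.3 CPM (SD, n = 4; log2 fold change −0.57, edgeR adjusted p = 6.98e-08), and 8 did not pass. Their median log2 fold change was −0.45, and 5, *Hsp90aa1* included, were lower at an unadjusted p under 0.05. *Hspa8*, the constitutive Hsp70, was at 202 ± 15.7 and 209 ± 17.7 CPM, and *Dnajb1*, an Hsp40 induced by heat shock, at 56.1 ± 10.6 and 40.6 ± 2.82 CPM (adjusted p = 0.0785).

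Of 13 regulators of crystallin transcription, 10 were tested, 2 rose and 0 fell in edgeR as in DESeq2, 0 were lower at an unadjusted p under 0.05, and the median log2 fold change was 0.23. *Pax6*, the paired-box factor of eye development, was at 10.2, 11.2, 9.40 and 10.0 CPM in *Bbs8*+/+ and at 20.5, 21.9, 24.4 and 18.9 CPM in *Bbs8*-/- libraries, and its log2 fold change was 1.07 (SE 0.28, adjusted p = 0.00844). *Maf*, the large Maf factor of lens fibres, rose from 151 ± 20.6 to 217 ± 11.9 CPM (SD, n = 4; log2 fold change 0.52, edgeR adjusted p = 0.000496). Both moved opposite to the crystallins. *Prox1* and *Hsf4*, needed for fibre differentiation, were at 7.48 ± 1.80 and 9.08 ± 2.07 CPM and at 2.41 ± 1.06 and 2.31 ± 1.38 CPM and did not pass. *Foxe3*, a factor of lens epithelium, had no count in any library, and *Pitx3* and *Sox1* had too few to test.

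Genes called crystallins for an enzyme or for a related domain, and not known as lens proteins of the mouse, did not fall. Of 7 such genes 6 were tested, 0 were lower in edgeR or DESeq2 or at an unadjusted p under 0.05, and their median log2 fold change was 0.21. *Crym*, a thyroid hormone-binding protein, rose from 6.85 ± 2.67 to 14.6 ± 4.33 CPM (SD, n = 4), at the edge of the threshold (log2 fold change 1.09, edgeR adjusted p = 0.0499), and under most alternatives it did not pass. *Cryz*, *Cryzl1*, *Cryl1*, *Crybg1* and *Crybg3* did not pass, with log2 fold changes between −0.06 and 0.49.

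Among the tested genes nearest to the members, a larger share was called than the 12.3% of all tested genes called in either direction, except near *Cryab*. A single call among 4 or 6 genes already exceeds 12.3%, the calls went in both directions, and these shares were not tested. Of the 6 that flank the chromosome 5 cluster, *Ttc28* and *2900026A02Rik* rose and 4 did not pass, with log2 fold changes from −0.15 to 1.02. Of the 6 between its gene pairs, *Hps4* rose and *Tfip11* fell, by 0.71 on the log2 scale. Of the 4 nearest to each of the others, *Rrp1b* near *Cryaa*, *Taok1* near *Cryba1* and *Cdk5r2* near *Cryba2* fell, and those near *Cryab* had an adjusted p of 0.233 or more. *Cdk5r2*, a neuronal activator of Cdk5 that lies 32202 bp from *Cryba2*, had the largest fall among the neighbours named, a log2 fold change of −1.18 (edgeR adjusted p = 4.27e-11).

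Over the 8 libraries, the genes outside the members whose centred log2(CPM + 1) lay nearest to *Cryaa*, among 8420 genes that averaged 10 CPM or more, were *Crygc* (root mean square difference 0.245), *Crygs* (0.273), *Crygb* (0.311), *Mef2c* (0.321) and *Crygd* (0.354). For *Cryab* they were *Epb41l2* (0.0973), *Crb1* (0.131), *A930003A15Rik* (0.132), *Wdr31* (0.132) and *H2afx* (0.137). *Epb41l2*, a membrane skeleton protein, went from 940 to 513 CPM. *Crb1*, a polarity protein of photoreceptors and Müller glia, went from 84.9 to 40.8 CPM. The distances span both genotypes, so a fall near that of *Cryaa* or *Cryab* was part of how these genes were picked.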

How the data were processed

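RPE of 4 *Bbs8*+/+ and 4 *Bbs8*-/- mice was profiled by QuantSeq 3′ sequencing. The authors trimmed reads with BBDuk, aligned them with STAR to mm10, tallied reads with htseq-count where they mapped uniquely, and deposited raw counts, with neither filter nor scaling. Whether counting used strand is not given in the sources used here. Reads that did not map uniquely were 32.8% to 34.5% of a library. These and reads outside genes were kept out of library sizes.

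Symbols and coordinates were from GENCODE M21 (GRCm38), in which 31011 of 31053 identifiers had a name. Fits used edgeR 4.0.16 and limma 3.58.1 in R 4.3.3. Genes reaching 1 CPM in 4 or more libraries were kept, libraries were scaled by TMM (factors 0.955 to 0.980 in *Bbs8*+/+, 1.02 to 1.05 in *Bbs8*-/-), and glmQLFTest was run with genotype alone and a threshold of 0.05 on the Benjamini-Hochberg adjusted p. Relative tests used the log count of *Cryab*, or of the summed gamma crystallins, as offset in place of library size. Single values were compared by exact permutation tests. The scripts were tested on simulated data. Each animal was 1 replicate, and no libraries held identical counts. No pairing by replicate number was seen: correlations of deviations from the group means between equal numbers were −0.032 to 0.0067. Whether equal numbers came from 1 litter is not given in the sources used here.

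The members, the lists and the comparisons were chosen with earlier results of these data known, so no list is independent support. Genes named were *Ttc8*, the members, the genes of the lists (gamma, enzyme-related and nonlens crystallins, lens fibre genes, regulators, small heat shock proteins, chaperones and markers of RPE, rods, Müller glia, muscle, erythrocytes and ocular surface), the nearest tested genes, and the 5 genes nearest in pattern to *Cryaa* and to *Cryab*. A result for 1 gene that this rule covers is not reported here. Alternatives were DESeq2 1.42.0, the likelihood ratio test, 2 other scalings, 2 other filters, the replicate block, each library left out in turn, other references and a pseudocount of 0.1.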

Additional observations from a re-analysis of the deposited data

Results flagged for a closer look

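A library far from the others of its genotype was looked for with Dixon's test in 30 groups of 4 values, of which chance alone would mark about 1 in 20. It marked 4, all among *Bbs8*+/+ libraries. *Cryaa* was at 547.35 CPM in replicate 3, against 604.95 to 608.74 CPM in the others. *Cryab* was at 276.23 CPM in replicate 1, against 377.3 to 394.23 CPM. For each count of *Cryab*, *Cryba4* had 0.25733 counts in replicate 2, against 0.22644 to 0.23039, and *Crybb2* had 0.58456 counts in replicate 1, against 0.29794 to 0.33302. The last value holds the low *Cryab* count of the same library. Without *Bbs8*+/+ replicate 1 the log2 fold change of *Cryab* was −0.97 in place of −0.87, and that of *Crybb2* relative to *Cryab* −1.17 in place of −1.44; both stayed past the threshold.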

How the results depend on the processing

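All 8 members were lower under each of 15 alternatives to the main test, and all 7 were lower relative to *Cryab* under each of 11, with 8 of 8 and 7 of 7 also in the fits with a replicate block. The log2 fold change of *Cryab* ranged from −0.97 to −0.78 and that of *Cryaa* from −3.0 to −2.79. Over all genes, 877 lower and 704 higher became 657 and 1005 with library size alone, which shifted the median log2 fold change by 0.0886.

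Relative to gamma crystallins the direction depended on the reference. With lens fibre genes in their place it turned to −2.04 for *Cryaa*, −0.028 for *Cryab*, −2.03 for *Cryba1*, −2.10 for *Cryba2*, −1.54 for *Cryba4*, −1.63 for *Crybb1*, −1.48 for *Crybb2* and −1.77 for *Crybb3*, and 0 of 8 were higher. Without *Tdrd7* and *Caprin2* in that reference, an alternative chosen after seeing the data, it was −1.24 for *Cryaa*, −1.26 for *Cryba1*, −1.33 for *Cryba2*, −0.80 for *Cryba4*, −0.84 for *Crybb1*, −0.68 for *Crybb2* and −0.97 for *Crybb3*, and only *Cryab* (0.73; 1 of 8) was higher. With a library left out, 6 to 8 were higher: *Cryba2* (0.29 to 0.58) missed the threshold without *Bbs8*-/- replicate 1 (0.29) or 4 (0.38), and *Crybb1* (0.46 to 1.13) without replicate 1 (0.46).

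*Crym*, the 1 enzyme-related gene called higher, was lost (0) with TMM factors computed without lens, rod and erythrocyte genes, with no filter, with the replicate block, and in 7 of 8 fits that left out a library (0 to 1). With a library left out, 0 to 1 small heat shock proteins and 1 to 3 chaperones were lower and 1 to 2 RPE markers higher; the latter was 2 with library size alone. The small heat shock protein was called only without *Bbs8*-/- replicate 1. With the replicate block, 827 genes were lower and 650 higher, and 1 of 4 *Bbs8*+/+ libraries correlated best with its own number. The lowest members, near 21 counts, set the widest intervals.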
